A study of Mus musculus with 2 samples.

Results

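The corticotropin receptor gene Mc2r and the 2 genes for its accessory proteins, Mrap and Mrap2, were followed through long-read RNA sequencing of the mouse adrenal gland. Every model listed under these 3 gene names was taken from the read count tables of both libraries, whatever its class, and its exons from the matching model files. Mc2r and Mrap had reads and Mrap2 had none, so 2 of the 3 genes stand among the 15683 annotated genes with reads, of 55536 in the annotation. The study held 1 group of 2 libraries, made from total RNA of adrenal glands of male B6CASTF1/J mice at 36 days of age. B6CASTF1/J is the first-generation cross of the inbred strains C57BL/6J and CAST/EiJ. No condition was compared with another. The libraries are named by their biological replicate number, but one label gives both the same animal and another gives them different animals. The spread between them may therefore be technical in part.

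Corticotropin, the pituitary hormone that drives glucocorticoid output, acts on the melanocortin 2 receptor encoded by Mc2r. The receptor couples to the stimulatory G protein, which raises cyclic AMP (cAMP), activates protein kinase A and so promotes cholesterol supply and steroid synthesis in the adrenal cortex. The receptor needs the single-pass membrane protein encoded by Mrap to reach the cell surface and to bind corticotropin. MRAP2, the product of Mrap2, is a related protein best known for acting with the melanocortin 4 receptor in the brain.

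Mrap lies at chr16:90738207-90749785 on the plus strand of mm10 (ENSMUSG00000039956.9), and GENCODE M21 annotates 4 transcripts of it. All 4 join the same end of exon 1, at position 90738669, to a different next exon, and these junctions tell the forms apart in the reads. In the junction sequences below, taken from the GENCODE M21 transcripts, exon 1 is in lower case and the next exon, starting at 90747524, 90746642, 90746311 and 90747375 in turn, is in capitals.
Mrap-201: tgaaagccaacaagcATTCCATTGTCATCG
Mrap-202: tgaaagccaacaagcTGTGAGACCGTCTTT
Mrap-203: tgaaagccaacaagcAACACAGCAGCTGTC
Mrap-204: tgaaagccaacaagcGCTGTTACTGGAAAC
Mrap-201, the protein-coding transcript, has 3 exons, 1001 bases and 127 codons. Mrap-202 and Mrap-204 are annotated as targets of nonsense-mediated decay, the removal of transcripts with an early stop, and their reading frames end after 36 and 44 codons. Mrap-203 is annotated as a transcript without a reading frame.

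The first 206 bases of the Mrap-201 reading frame, from exons 1 and 2, are shown because nearly all full-length Mrap reads carried this form and the alternative junctions lie where these exons meet. The 106 coding bases of exon 1 are in lower case and the 100 bases of exon 2 in capitals, and a further 178 bases of exon 3 complete the 384 bases of the frame up to its stop.
Mrap-201 reading frame, exons 1 and 2: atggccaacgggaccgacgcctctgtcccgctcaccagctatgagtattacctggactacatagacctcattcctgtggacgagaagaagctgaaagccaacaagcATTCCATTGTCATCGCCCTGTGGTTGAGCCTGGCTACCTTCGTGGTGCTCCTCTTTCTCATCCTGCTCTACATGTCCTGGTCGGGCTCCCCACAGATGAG

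The libraries held 452437 and 463102 endogenous reads after spike-in reads were set aside. Levels are read counts, or counts per 1000000 endogenous reads of the library (CPM). A single read made 2.21 CPM in the first library and 2.16 CPM in the second. Markers of the adrenal cortex summed to 60422 and 48579 CPM, and chromaffin markers of the medulla to 11759 and 16795 CPM, so both parts of the gland were present. Pancreas acinar markers were all at 0 in replicate 1 and summed to 4340 CPM in replicate 2. Liver markers summed to 2.21 and 402 CPM, pancreas islet markers to 0 and 253 CPM, and brown adipocyte markers to 2195 and 4764 CPM. Zona glomerulosa markers summed to 4549 and 3090 CPM, of which Kcnk3 made up 3291 and 2224 CPM. Zona fasciculata markers, which include Mc2r and Mrap, summed to 15739 and 12472 CPM.

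Mrap was abundant, Mc2r was less abundant and Mrap2 was not detected. Mrap was read 357 times (789 CPM) in replicate 1 and 189 times (408 CPM) in replicate 2, with a mean of 599 ± 269 CPM (SD, n = 2), and ranked 225 by mean CPM. Mc2r had 35 reads (77.4 CPM) and 36 reads (77.7 CPM), a mean of 77.5 ± 0.267 CPM (SD, n = 2), and ranked 2393. Mrap therefore stood high in both libraries but at unequal levels, and Mc2r had nearly the same level in both. In whole tissue, fewer cells of a type and less RNA per cell cannot be told apart. These Mc2r values hold only the reads on the strand of the gene, and the reads on the other strand of its place are given further on.

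Mrap2 (ENSMUSG00000042761.14, chr9:87144306-87184045, plus strand) had 0 reads of any class on either strand in both libraries. A count of 0 allows up to 3 reads, which is 6.63 CPM in replicate 1 and 6.48 CPM in replicate 2. Against this floor per library, Mrap was at least 119-fold and 63-fold higher and Mc2r at least 11.7-fold and 12-fold higher. The longest run of sequence that Mrap-201 shares with Mrap2-202, the longest annotated Mrap2 transcript, was 10 bases.

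**Figure D1:**
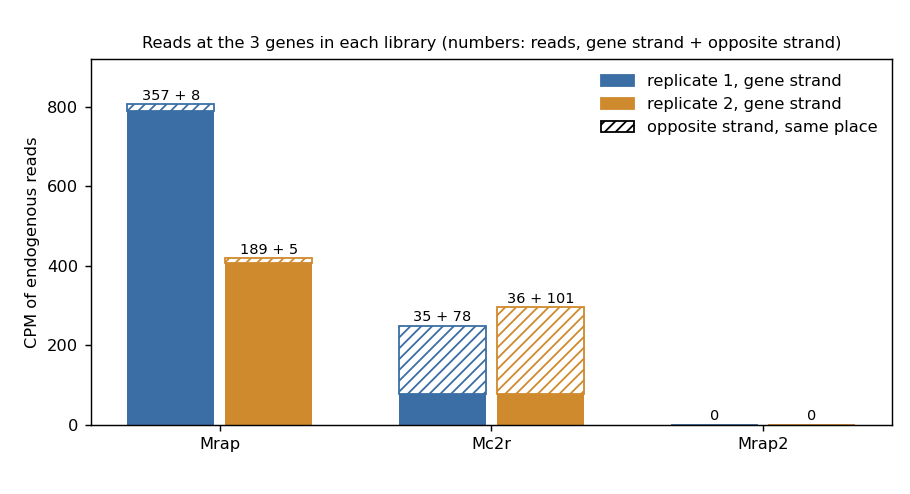
Levels of Mrap, Mc2r and Mrap2 in CPM of endogenous reads (vertical axis) in replicate 1 (blue) and replicate 2 (orange). Filled bars are reads on the strand of the gene, hatched bars are reads on the opposite strand at the same place, and the printed numbers are read counts. At Mc2r the hatched part (78 and 101 reads) is larger than the filled part (35 and 36 reads), and at Mrap it is 8 and 5 reads.

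Mrap was 1.93-fold higher in replicate 1 than in replicate 2 (95% interval 1.62 to 2.32), a log2 ratio of replicate 2 over replicate 1 of -0.95. The adjusted p of Fisher's exact test over all tested genes was 5.35e-12, but the change was under 2-fold after adding 1 CPM, so Mrap was not called. By this rule 257 of 8135 genes were called, which is 3.16%. By the adjusted p alone Mrap was among the 526 genes called, which is 6.47%. The reads of Mrap thus differed between the libraries by more than counting error, while a difference between animals cannot be told apart from one between library preparations.

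The drop of Mrap in replicate 2 was larger than that of most genes, since 8.58% of the tested genes had a lower log2 ratio. Among 370 genes whose leading form was within 100 bases of the length of Mrap-201, the median log2 ratio was 0.21 and 3.24% were lower than Mrap. Pancreas, liver and ribosomal RNA reads made up 0.233% and 1.66% of the libraries, and without them the log2 ratio of Mrap was -0.93 (adjusted p = 1.97e-11 by Fisher's exact test). Mrap is also known as a gene of fat cells. The 8 adipocyte markers summed to 4604 CPM in replicate 1 and 5189 CPM in replicate 2, none of them at 0. Of these 8 markers, 5 were lower in replicate 2, and their median log2 ratio was -0.14. None of the 8 was called. Fabp4, a fatty acid carrier of fat cells, passed at an adjusted p of 5.44e-18 by Fisher's exact test with a log2 ratio of 0.75. Its CPM rose from 1054 in replicate 1 to 1773 in replicate 2, which weighs on the sum. Of the 4 brown adipocyte markers, 3 were called higher in replicate 2, beside 1.45% of all tested genes. These were Ucp1, Elovl3 and Cox8b, with log2 ratios of 1.11, 4.36 and 1.17. How far fat cells added to the Mrap reads was not tested.

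No difference between the libraries was found for Mc2r, with a fold of 0.995 in replicate 1 over replicate 2 (95% interval 0.607 to 1.63) and an adjusted p of 1 by Fisher's exact test. The interval leaves room for a level in replicate 1 of up to 1.63-fold, or as low as 0.607-fold, that of replicate 2. Replicate 1 held 10.2 Mrap reads per Mc2r read (95% interval 7.20 to 14.9) and replicate 2 held 5.25 (95% interval 3.66 to 7.72), intervals that overlap at their edges; the difference of the ratios was not tested.

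Over both libraries the ratio was 7.69 Mrap reads per Mc2r read (95% interval 6.0 to 9.99). Each long read stands for 1 transcript, so this is a ratio of transcript reads. Per kilobase of the leading form, 1001 bases for Mrap and 1631 bases for Mc2r, it was 12.5 (95% interval 9.77 to 16.3). Among full-length reads alone it was 8.71 (95% interval 6.63 to 11.6). Mrap exceeded Mc2r among all reads and among full-length reads. The value per kilobase rescales the same reads by length and is not a separate comparison. The pooled intervals cover counting error only and not the spread between libraries. The ratios of the single libraries, 10.2 and 5.25, both lie outside the interval of 6.0 to 9.99.

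In level over the 2 libraries, the genes nearest to Mrap on the log2 scale of CPM + 1 were Tubb6, which encodes a beta-tubulin, with 379 and 172 reads at a distance of 0.161, Ddx5, which encodes an RNA helicase, with 340 and 221 reads at 0.236, and Pcyt2, which encodes an enzyme of phosphatidylethanolamine synthesis, with 309 and 211 reads at 0.262. The genes nearest to Mc2r, among 10446 compared, were Usp19, Copb1 and D17Wsu92e, each with the same 35 and 36 reads. With 2 libraries such likeness describes a level and a difference, not a shared pattern.

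Most Mrap reads were full-length, and nearly all of those were the coding form. TALON calls a read Known where it follows an annotated transcript, NIC where it joins annotated splice sites in another combination, NNC where a splice site is not annotated, and ISM where it follows part of a transcript, and the first 3 classes count as full-length here. Of the Mrap reads, 331 of 357 in replicate 1 (92.7%, 95% interval 89.5 to 95.0) and 174 of 189 in replicate 2 (92.1%, 95% interval 87.3 to 95.1) were full-length, with gene medians of 93.5% and 91.8%. The shares differed by less than the counting error (adjusted p = 1, Fisher's exact test), in a comparison where 3 of 3416 genes, 0.0878%, were called.

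Mrap-201 had 319 reads in replicate 1 and 161 in replicate 2. That was 96.4% (95% interval 93.8 to 97.9) and 92.5% (95% interval 87.6 to 95.6) of the full-length reads, a mean of 94.5 ± 2.72% (SD, n = 2). Fisher's exact test found no difference of these shares (adjusted p = 1), with 0.066% of 3030 genes called. The gene medians of the leading share were 91.7% and 91.9%, close to those of Mrap.

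The rest of the full-length Mrap reads were almost all of the decay forms. Mrap-204, in which the second exon starts at 90747375 and so is longer at its 5′ side, had 10 and 6 reads. Mrap-202, which takes up an extra exon at 90746642 before the usual second exon, had 2 and 6 reads. Together they made up 12 of 331 full-length reads (3.63%, 95% interval 2.09 to 6.23) and 12 of 174 (6.90%, 95% interval 3.99 to 11.7), and the intervals overlap. Mrap-203 was not seen, but 1 read of replicate 2 used its junction to 90746311 and then went on to the last exon.

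Incomplete Mrap models covered the 3′ end or kept the last intron. The last exon by itself (555 bases) had 15 and 8 reads, and the second and last exons together had 4 and 6 reads. A model that joined exon 1 to a stretch running from the second exon to the last, with the intron at chr16:90747624-90749230 (1607 bases) unspliced, had 7 reads in replicate 1 and 0 in replicate 2. The same intron was spliced in 335 and 180 reads, so its retention was rare in replicate 1 and not detected in replicate 2.

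**Figure D2:**
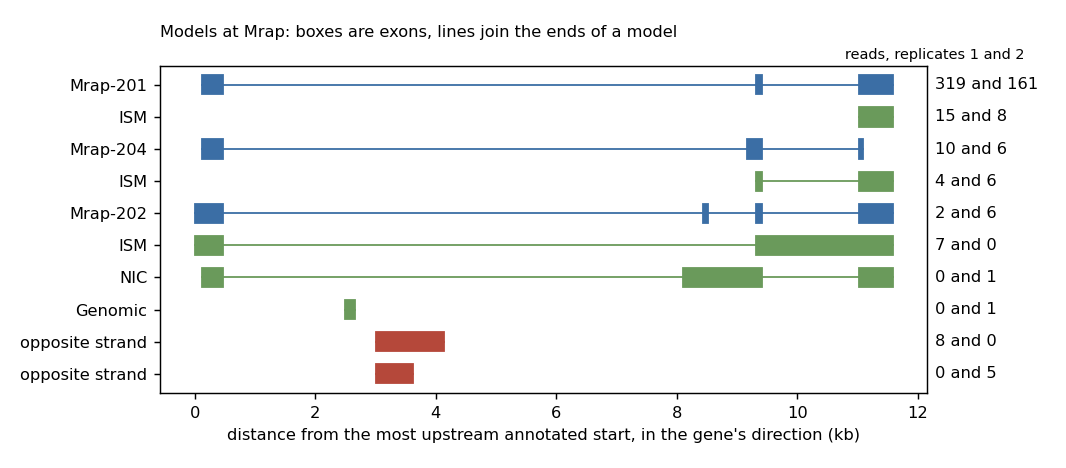
Models at Mrap by distance from the most upstream annotated start in kilobases (horizontal axis), with read counts of replicates 1 and 2 at the right. Annotated forms are blue, unannotated models of the gene green with their TALON class, and opposite-strand models red. Mrap-201 holds 319 and 161 reads, and the opposite-strand models are single exons inside intron 1.

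Mc2r (ENSMUSG00000045569.7) lies at chr18:68406907-68429320 on the minus strand, with 1 annotated transcript, Mc2r-201, of 3 exons and 1631 bases. Its whole reading frame of 296 codons (888 bases, chr18:68407333-68408220) lies in the last exon, which is 1410 bases long and holds 96 bases of leader before the start codon. Forms that splice into this exon at its annotated start and run to its annotated end therefore carry the same reading frame and differ in the 5′ leader alone. The frame is that of a receptor with 7 transmembrane segments, and receptor genes of this kind often keep it in a single exon.

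On the gene strand, annotated transcripts, which at Mrap include the decay forms, took a smaller share of Mc2r reads than of Mrap reads. Known reads were 54.3% (95% interval 38.2 to 69.5) and 47.2% (95% interval 32 to 63.0) at Mc2r, against 92.7% (95% interval 89.5 to 95.0) and 91.5% (95% interval 86.7 to 94.7) at Mrap, and these intervals do not overlap. Of the gene-strand reads of Mc2r, 30 of 35 (85.7%, 95% interval 70.6 to 93.7) and 28 of 36 (77.8%, 95% interval 61.9 to 88.3) were full-length by class. Mc2r-201 had 19 and 17 reads, which is 63.3% (95% interval 45.5 to 78.1) and 60.7% (95% interval 42.4 to 76.4) of them, a mean of 62.0 ± 1.85% (SD, n = 2). Fisher's exact test found no difference of either share between the libraries (adjusted p = 1 for each). Of the 3030 genes with such a share, 14.1% had a lower mean share of the leading form than Mc2r, against 59.9% for Mrap. These Mc2r shares leave out the opposite-strand reads with its annotated introns, given further on. They were not recomputed with those reads, so the contrast with Mrap holds for gene-strand reads only.

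Most of the other full-length Mc2r reads had another leader. The form that skips the second exon had 5 and 3 reads. A form with an unannotated exon of 57 bases at chr18:68422116-68422172, between the first and second annotated exons, had 2 and 5 reads. The deposited tables class this same intron chain as NNC in replicate 1 and as NIC in replicate 2, although its introns at the added exon are not annotated, so the class counts of Mc2r are not strictly comparable between the libraries. Both classes count as full-length here. With all models counted, 4 reads of replicate 1 and 6 of replicate 2 held this exon, and in 2 reads of replicate 1 it was the first exon. Another unannotated exon, ending at 68427763 in the direction of the gene, served as the first exon in 2 reads and 1 read. These 3 reads count as full-length by class, but none of their models holds the whole reading frame. In replicate 1 one model spliced over the annotated last exon and the other ended before it, and in replicate 2 the model ended at 68407787, inside the frame. Model ends are shared between reads, so where the read of replicate 2 itself stopped was not tested. Of 12 Mc2r models on the gene strand, 3 were seen in both libraries and 6 rested on 1 read in all.

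The remaining gene-strand reads of Mc2r were 5 and 7 Genomic reads, the class for reads that overlap a gene without its splicing. They were unspliced models inside the last exon, from its end at 68406907 up to 68407568 in replicate 1 and up to 68407787 in replicate 2. Without them the mean of Mc2r was 64.5 CPM.

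Most spliced reads at Mc2r were listed on the opposite strand. The place of Mc2r held 78 opposite-strand reads in replicate 1 (172 CPM) and 101 in replicate 2 (218 CPM), all under unannotated genes, against 35 and 36 reads under Mc2r itself. Of these, 62 and 89 had no intron other than the annotated introns of Mc2r, at the same bases. They were 67.4% (95% interval 57.3 to 76.1) and 75.4% (95% interval 66.9 to 82.3) of those reads and the spliced Mc2r reads together, so they outnumbered the gene's own spliced reads in both libraries.

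These opposite-strand models had the 3 exons of Mc2r-201 but a shorter last exon. The leading model ran from 68407568 to 68429320 in replicate 1 with 62 reads, and from 68407787 to 68429320 in replicate 2 with 88 reads. The lower ends are the same 2 positions at which the unspliced gene-strand models ended in the same library. The opposite-strand models covered the splice junctions and the start of the reading frame but not its end, which lies at 68407333.

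Opposite-strand reads also showed the skip of the second exon, with 12 reads and 9 reads. Their intron ran from 68408322 to 68429217, which is 5 and 6 bases away from the ends of the gene-strand skip intron, 68408317 to 68429211. Among reads that span from the last to the first exon within 10 bases, the second exon was included in 21 of 26 (80.8%, 95% interval 62.1 to 91.5) and 23 of 27 (85.2%, 95% interval 67.5 to 94.1) gene-strand reads. On the opposite strand it was included in 63 of 75 (84.0%, 95% interval 74.1 to 90.6) and 89 of 98 (90.8%, 95% interval 83.5 to 95.1), so the intervals overlap between strands. The middle exon of 57 bases was in 2 of 26 (7.69%, 95% interval 2.14 to 24.1) and 6 of 27 (22.2%, 95% interval 10.6 to 40.8) such gene-strand reads. It was in 0 of 75 and 0 of 98 opposite-strand reads, whose intervals reach 4.87% and 3.77%.

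**Figure D3:**
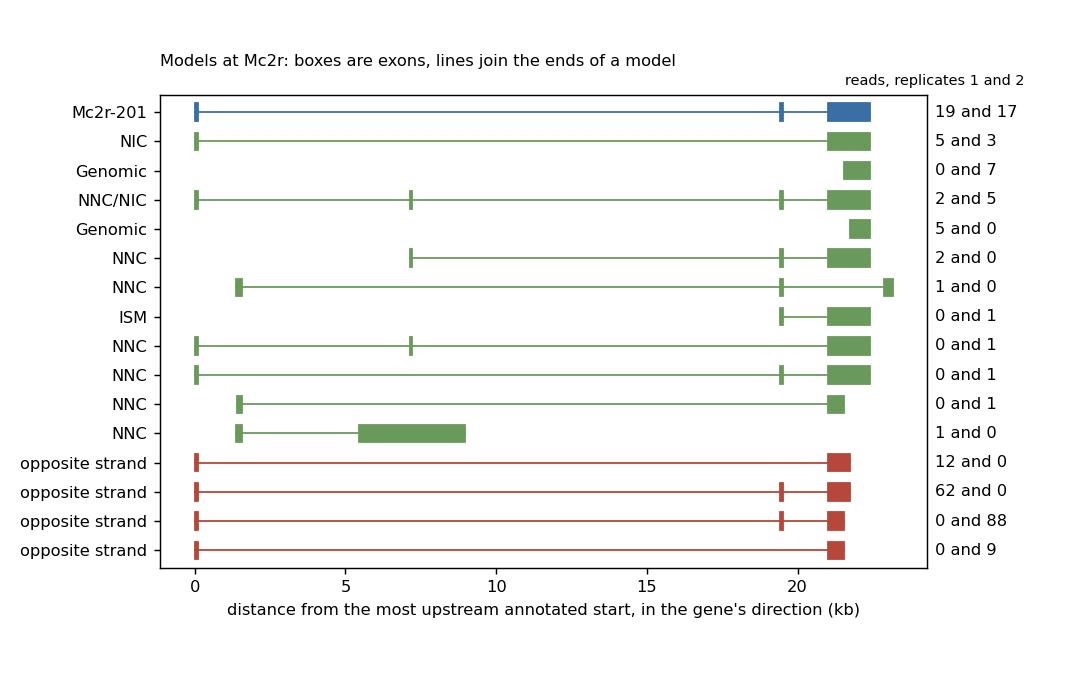
Models at Mc2r by distance from the annotated start in the direction of the gene, in kilobases (horizontal axis), with read counts of replicates 1 and 2 at the right. The annotated form is blue, unannotated gene-strand models are green with their TALON class, and opposite-strand models with at least 5 reads in a library are red. The red models with 62 and 88 reads have the exons of Mc2r-201 with a shorter last exon.

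The level of Mc2r depends on whether these reads are its own. With the 62 and 89 reads counted, Mc2r had 97 and 125 reads, or 214 and 270 CPM, a mean of 242 ± 39.3 CPM (SD, n = 2). The log2 ratio of the libraries was then 0.33 (adjusted p = 0.415, Fisher's exact test), not called. The ratio of Mrap to Mc2r reads fell to 3.68 (95% interval 2.93 to 4.66) in replicate 1 and 1.51 (95% interval 1.20 to 1.91) in replicate 2, and to 2.46 over both. Mrap still had more reads than Mc2r in both libraries. From which strand these transcripts were made was not tested.

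Reads of this kind were rare elsewhere. Over all annotated genes, 424 and 490 opposite-strand reads had only introns of the gene on the other strand, which is 0.110% (95% interval 0.0996 to 0.120) and 0.129% (95% interval 0.118 to 0.141) of spliced reads. They fell on 117 and 113 genes, 34 of them the same in both libraries. Mc2r had the most in both libraries and held 14.6% and 18.2% of them. Of the 3593 and 3435 genes with at least 20 spliced reads of either kind, the opposite strand exceeded the gene strand in 5, and the 5 were the same in both libraries: Mc2r, Mbnl1, Igf1r, Crebbp and Nr2f2. Mbnl1, a splicing regulator, had 29 and 58 opposite reads beside 19 and 21 of its own, and Igf1r, a growth factor receptor, 37 and 31 beside 5 and 3. Crebbp had 42 and 25 opposite reads beside 0 and 0 spliced reads of its own. Nr2f2 had 29 and 13 beside 14 and 12, a narrow excess in replicate 2.

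**Figure D4:**
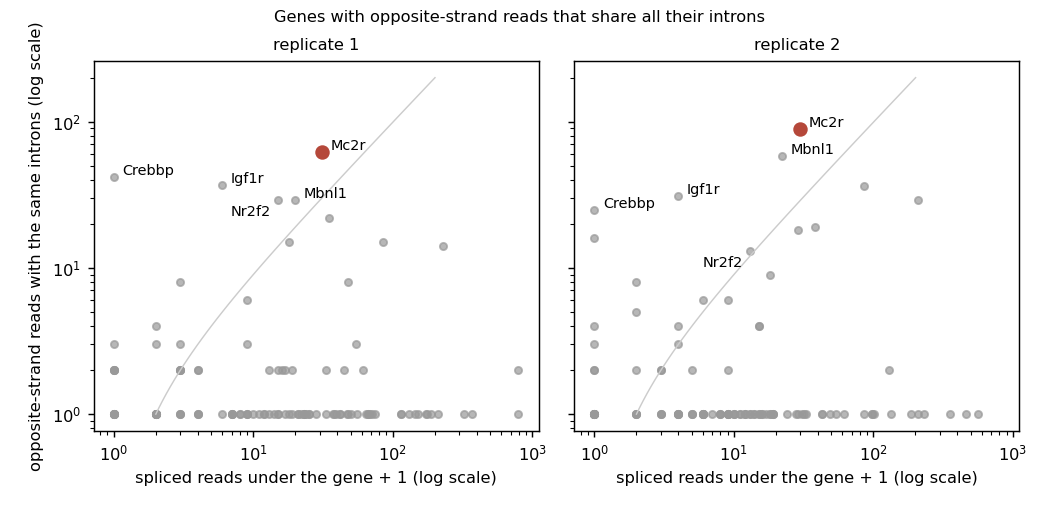
Genes with opposite-strand reads that have only their introns, in replicate 1 (left) and replicate 2 (right), with spliced reads under the gene plus 1 (horizontal, log scale) against the opposite-strand reads (vertical, log scale). Points above the grey line have more opposite-strand than gene-strand spliced reads. Mc2r, in red, is the highest point in both panels with 62 and 89 opposite-strand reads.

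At Mrap the opposite strand held 8 and 5 reads, all unspliced and inside intron 1, at chr16:90741210-90742338 in replicate 1 and chr16:90741210-90741834 in replicate 2. No opposite-strand read at Mrap had an intron of Mrap, beside 342 and 180 spliced reads of the gene, so the intervals of the share reach 1.11% and 2.09%. The intervals at Mc2r, in the same libraries, start at 57.3% and 66.9%.

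Other melanocortin genes were at or near 0. Mc1r, Mc3r, Mc4r and Mc5r, which encode the other melanocortin receptors, had 0 reads in both libraries. Pomc, which encodes the precursor of corticotropin, had 0 and 2 reads, and Agrp, which encodes a blocker of the melanocortin 3 and 4 receptors, had 1 and 3 reads. Mc2r was the one melanocortin receptor gene with reads, where a count of 0 allows up to 6.63 and 6.48 CPM for the others.

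Downstream of the receptor, most genes of the pathway did not pass the test and a few transcription factors were higher in replicate 1. The list held 65 genes of ligands, G proteins, adenylyl cyclases, protein kinase A, phosphodiesterases, arrestins and receptor kinases, transcription factors and steroid targets. Of the 38 tested, 3 were called, all higher in replicate 1 and 0 higher in replicate 2, beside 1.71% and 1.45% of all tested genes. The median log2 ratio of the tested genes was -0.21, against -0.03 over all genes, and 63.2% against 55.2% were lower in replicate 2.

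The gene of the G protein that the receptor couples to was among the more abundant of the pathway. Gnas, which encodes the stimulatory G protein alpha subunit, had 895 and 927 reads over all its models, or 1990 ± 16.6 CPM (SD, n = 2). How many of these reads came from forms that encode this subunit was not tested. The beta and gamma subunit genes Gnb1, Gnb2 and Gng5 had 121 and 85, 142 and 151, and 138 and 167 reads. The adenylyl cyclase genes, whose products make cAMP, had few reads, with 5 and 12 for Adcy3. None of the 7 tested genes of this group was called.

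Protein kinase A was read mainly through its regulatory subunit genes. Prkar1a had 294 and 187 reads, with a log2 ratio of -0.69 and an adjusted p of 1.29e-05 by Fisher's exact test, under 2-fold and so not called. Prkar2b had 217 and 191 reads, the catalytic subunit gene Prkaca 169 and 163, the anchor gene Akap1 40 and 37, and Prkar1b 37 and 39. Of 7 tested, 5 were lower in replicate 2 and 0 were called. Among the phosphodiesterases, which break down cAMP, Pde2a had 71 and 88 reads and Pde8b 24 and 18. Grk2 and Grk6, which encode receptor kinases, had 20 and 24 and 19 and 25 reads. No tested gene of these last 2 groups was called.

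Among the transcription factors, 3 of 5 tested genes were called, all higher in replicate 1. Nr4a1, an immediate early gene that corticotropin is known to induce, was read 519 times in replicate 1 and 8 times in replicate 2, a log2 ratio of -5.97 (adjusted p = 1.57e-141, Fisher's exact test). Crem, whose short products repress cAMP-driven transcription, had 95 and 32 reads, a log2 ratio of -1.59 (adjusted p = 3.61e-07). Nr5a1, the steroidogenic factor of the cortex, had 274 and 129 reads, a log2 ratio of -1.12 (adjusted p = 5.35e-12). The log2 ratios of Mrap and Mc2r beside these were -0.95 and 0.01.

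All 10 steroid genes were lower in replicate 2, and none was called. The most abundant were Cyp11a1, the enzyme of the first step of steroid synthesis, with 12394 and 10862 reads, Cyp21a1 with 6639 and 5343, Star, the carrier of cholesterol into mitochondria, with 5066 and 3475, Hsd3b1 with 2964 and 2688, and Cyp11b1, the last enzyme of corticosterone synthesis, with 2460 and 2251. The median log2 ratio of the 10 was -0.34. At any fold, 8 of them passed an adjusted p of 0.05 in Fisher's exact test. They were among 12 of the 38 tested pathway genes (31.6%) that passed, beside 6.47% of all tested genes. The test passes smaller changes in genes with more reads, as for Cyp11b1 at a log2 ratio of -0.16. These shares were not matched for read depth. The 5 cortex markers, which are Nr5a1 and 4 of these steroid genes, were all lower in replicate 2, and their part in the lower Mrap reads was not tested.

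**Figure D5:**
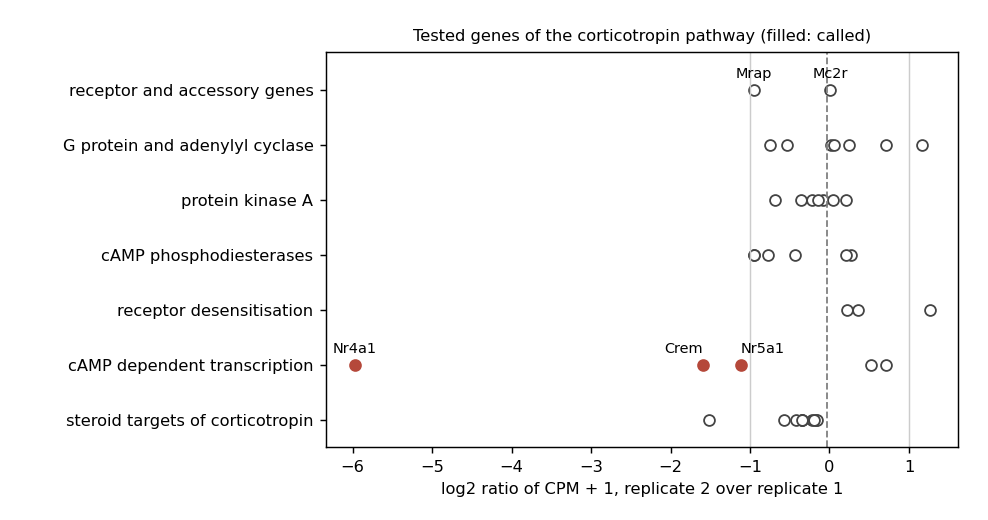
Log2 ratio of CPM + 1, replicate 2 over replicate 1 (horizontal axis), for each tested gene of the corticotropin pathway, by group. Filled points are called, grey lines mark 2-fold and the dashed line is the median of all tested genes. Nr4a1 (-5.97), Crem (-1.59) and Nr5a1 (-1.12) are filled, Mrap lies at -0.95 and Mc2r at 0.01.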

How the data were processed

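The authors deposited whole read counts per transcript model and library, with no normalization, on mm10 with the GENCODE M21 annotation, per the file headers and the deposited notes. The class columns are those of TALON, which sorts long reads by how they follow annotated splicing. The aligner, the TALON version and the handling of strand were not given in the sources used here. Models with 0 reads are not listed, so an absent gene was taken as 0 reads. Model ends are shared between reads, and read lengths were not analysed here.

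Counts were summed per annotated gene over all classes and scaled to 1000000 endogenous reads of the library (CPM). Spike-in models were left out. Each of 8135 genes with at least 10 reads summed was compared between the libraries by Fisher's exact test, two-sided, adjusted over all of them after Benjamini and Hochberg. Calls needed an adjusted p below 0.05 and, with 1 CPM added, a fold of at least 2. The test compares these 2 libraries, and a model of the spread between samples could not be fitted with 1 group. The change of a share of reads was tested in the same way over genes with at least 20 reads in each library and called at 10 percentage points or more. Shares carry Wilson 95% intervals and ratios exact conditional (Clopper-Pearson) 95% intervals. Intervals, p-values and the floor of 3 counts cover counting error of independent reads only, and without molecular identifiers amplified reads may not be independent molecules. Splice forms were matched between libraries by intron chain.

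Tested on simulated data drawn from the mean profile of the libraries (8149 genes), the test made 8 false calls and recovered 78.6% of 2.5-fold, 98.6% of 4-fold and 100% of 8-fold changes. Changes were set only in genes with well more reads than the test required, so recovery in sparser genes is not covered. Reads were drawn with counting error alone, so the false calls do not give the error rate under spread between libraries. Python 3.11.15 with scipy 1.17.1, pandas 2.3.3 and matplotlib 3.10.9 was used, with edgeR 4.0.16 and DESeq2 1.42.0 in R 4.3.3 for scaling factors only.

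The 3 genes, the pathway lists and the marker lists were chosen with earlier results of these data known. The text names the 3 genes in full, up to 5 of the most abundant members of each pathway list, every called member of those lists, the 3 genes nearest to each of them in level, and every form with at least 3 reads in a library or seen in both. Forms of 1 read and genes outside these rules that the text names were chosen after their values were seen. The alternatives were other scaling, class filters, count filters, call rules, per-kilobase ratios and leaving out a library. Those that add opposite-strand reads were chosen after seeing the data.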

Additional observations from a re-analysis of the deposited data

Results flagged for a closer look

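Reads outside the count of the 3 genes appeared at the places of Mc2r and Mrap, above the 3 reads that a count of 0 allows. At Mc2r the opposite strand held 78 reads in replicate 1 and 101 in replicate 2, under unannotated gene names. At Mrap it held 8 reads in replicate 1 and 5 in replicate 2, all unspliced and inside the first intron. No control sample was at hand for either, and their source was not tested.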

How the results depend on the processing

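Of 78 recomputed values, 64 kept their direction and their side of the threshold or stayed within the spread. The mean of Mc2r was 63.4 CPM over full-length reads, 64.5 CPM without Genomic reads, 78.3 CPM over a total without pancreas, liver and ribosomal RNA reads, and 242 CPM with the opposite-strand reads of its introns. The adjusted p alone called 526 genes in place of 257, Mrap (-0.95) among them. The ratio of Mrap to Mc2r was 12.5 per kilobase, 2.46 with opposite-strand reads of the introns of Mc2r and 2.24 with every opposite-strand read. It ranged from 5.25 to 10.2 when either library was left out. The mean share of Mc2r reads was 50.8% with Known reads alone in place of 81.7% full-length. A change of the leading form was called by Fisher's exact test in 2 genes, in 1 with ISM reads counted and in 0 with Known reads alone, where 63 of 2732 genes had an unadjusted p under 0.05. For the shifts not made by the reads counted, the cause was not tested. Mrap stayed under 2-fold with TMM factors (log2 ratio -0.88) and with DESeq2 size factors (-0.92). No paired analysis was possible because both libraries belong to 1 group. With 35 and 36 reads, depth limits Mc2r: its forms rest on few reads, and a change of under about 1.6-fold is within counting error.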
